A study of Mus musculus with 2 samples.

Results

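Cxcl1, Cxcl2, Cxcl3, Cxcl12, Cxcr2 and Cxcr4 are the 4 chemokine ligands and 2 receptors best known for drawing neutrophils into tissue or holding them in place. They were taken by gene symbol, 1 row each, from the 56941 features of 2 single-cell count tables, and each of the 6 was read in both libraries. Reads were counted as UMIs, the molecular tags by which copies of 1 RNA molecule are counted once. The cells were CD45+ cells of liver metastases of MC38-LM3b, a mouse colorectal cancer line selected for spread to the liver, in C57BL/6 mice. The injected tumor cells expressed either shScramble, a control hairpin (Ctrl), or shSLAMF3, a hairpin against SLAMF3 (KD), which is a SLAM family receptor and the product of Ly9. The hosts of both groups carried no named allele. Mice were 6 to 8 weeks old at injection of the tumor cells into the spleen, lesions were taken 2 weeks later, and CD45+ cells were isolated by positive selection. Lesions of 3 mice were pooled into the 1 library of each group, so no spread between samples exists, no test was made, and every interval is a 95% interval for counting error only.

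Cxcl1, Cxcl2 and Cxcl3 are among the mouse ligands of CXCR2, the receptor that leads neutrophils out of the blood toward inflamed tissue. They are switched on quickly by NF-kappaB in macrophages, stromal cells and neutrophils themselves. CXCL12 is made by stromal cells of bone marrow and other tissues and retains CXCR4-bearing cells, so that young neutrophils stay in the marrow while CXCR4 is high and leave when CXCR2 prevails. Neutrophils that age or settle in tissue are known to regain CXCR4.

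Cxcl1, Cxcl2 and Cxcl3 lie near each other on chromosome 5. The 100 bases before their starts are shown because they share an element of the kind through which NF-kappaB acts on such genes. The sequences are those of RefSeq on build GRCm38.p6, plus strand, 5′ to 3′, and the longest run of letters found in all 3 of them, GGGAATTTCCC, is in capitals.
Cxcl1, chr5:90891145-90891244: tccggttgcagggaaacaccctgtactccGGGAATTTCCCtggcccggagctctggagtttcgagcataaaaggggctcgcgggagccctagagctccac
Cxcl2, chr5:90903799-90903898: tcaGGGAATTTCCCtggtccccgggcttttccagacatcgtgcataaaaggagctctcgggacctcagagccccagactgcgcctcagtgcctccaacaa
Cxcl3, chr5:90786001-90786100: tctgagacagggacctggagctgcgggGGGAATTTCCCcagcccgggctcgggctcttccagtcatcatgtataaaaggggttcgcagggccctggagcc
The run, which has the form of a kappaB site, ended 61 bases before the start in Cxcl1, 87 in Cxcl2 and 63 in Cxcl3. On either strand it was found in the promoters (250 bases before to 50 after the start) of 14 of 32851 genes, or 0.0426%. The next longest run that the 3 genes shared, ATAAAAGG, has the form of a TATA element and was found in 1.76% of promoters. Cxcl12, Cxcr2 and Cxcr4 had neither run in this window. Both runs were taken from these 3 sequences, so their presence there is no result. Aligned over their length, the stretches of Cxcl1 and Cxcl3 were 64.3% identical, those of Cxcl1 and Cxcl2 54.1%, and those of Cxcl2 and Cxcl3 50.5%.

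The filter kept 9814 cells of Ctrl, whose median depth was 5412 UMIs, and 10185 of KD, whose median depth was 4989. The libraries shared 24 cell barcodes among these cells. Clusters were named from marker genes, so each class below is "like" its name, and none of the 6 genes was used to form or name a cluster. Ptprc, which encodes CD45, had a UMI in 75.5% to 100% of the cells of each immune class. It was found in only 16.1% to 20.3% of endothelial-like and of tumor-like or fibroblast-like cells, which the CD45+ selection had let through. The granulocytes, which are neutrophil-like by S100a8, S100a9, Csf3r, Retnlg and Hdc, numbered 804 in Ctrl and 2305 in KD. Macrophages, monocytes included, numbered 4118 and 3057. Ly9, the gene the hairpin targets, had 12 UMIs in the tumor-like or fibroblast-like cells of Ctrl and 7 in those of KD, which was too few to check the knockdown.

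Levels are given as CPM, the UMIs of a gene per 1000000 UMIs of all cells of a class in a library, and differences as the log2 ratio of CPM, KD over Ctrl. In the plot of levels by class, Cxcl2, Cxcr2 and Cxcr4 had their highest level in granulocytes in both libraries. Cxcl1 and Cxcl12 were highest in the tumor-like or fibroblast-like cells, and Cxcl3 in granulocytes.

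**Figure D1:**
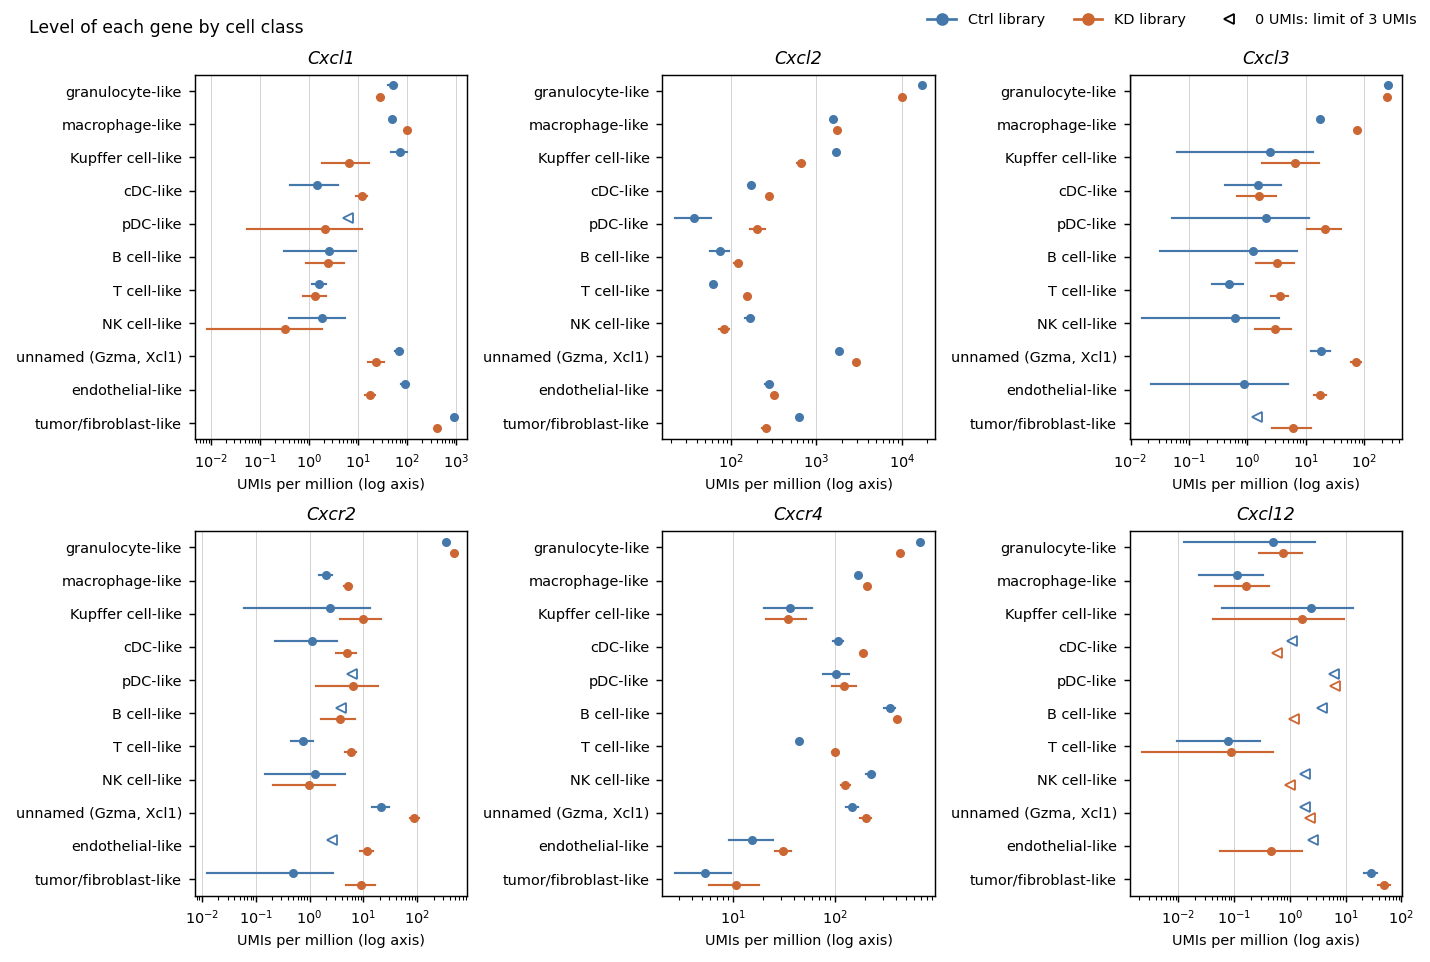
Level of each gene in CPM (log axis) in every cell class, with 1 point per library and bars for the 95% Poisson interval. Open triangles mark classes with 0 UMIs at the limit of 3 UMIs. Cxcl2 in granulocytes was at 17298 in Ctrl and 10090 in KD, above every other class, and Cxcl12 exceeded 10 only in the tumor-like or fibroblast-like cells.

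Over the 9 named classes with at least 50 cells in each library, which leaves out an unnamed cluster, there were 20 pairs of a gene and a class with at least 200 UMIs, and 4 of them were at least 2-fold higher and 3 at least 2-fold lower in KD. The higher ones were Cxcl1 and Cxcl3 in macrophages, where 1.63% of 10049 genes were at least 2-fold higher and 1.81% lower, and Cxcl2 and Cxcr4 in T cells, where 1.22% of 9441 genes were higher and 0.657% lower. The lower ones were Cxcl1 and Cxcl2 in the tumor-like or fibroblast-like cells, where 3.25% of 3107 genes were at least 2-fold lower and 0.515% higher, and Cxcl2 in NK cells, where 0.594% of 3702 genes were lower and 0.378% higher. Of these 7 calls, 4 were lost in other views of the same cells. Leaving out the 1% of cells with the most UMIs of the gene turned Cxcl2 in NK cells to 0.57 (0.19 to 0.97) and took Cxcl2 in the tumor-like or fibroblast-like cells from -1.29 to -0.93 (-1.12 to -0.74), under 2-fold. Cxcl1 and Cxcl3 in macrophages fell under 2-fold without the sub-clusters led by Ltc4s, at 0.026 and 0.84. The remaining calls, Cxcl2 and Cxcr4 in T cells and Cxcl1 in the tumor-like or fibroblast-like cells, stayed past 2-fold without those 1% of cells. No view without some sub-clusters or at an equal mix was made for them. By cluster of T cells, Cxcl2 was at 0.91, 1.48 and 0.68 and Cxcr4 at 1.03, 1.28 and 0.23. By larger sub-cluster of the tumor-like or fibroblast-like cells, Cxcl1 was at -2.46, -1.14 and -0.55. No pair of at least 200 UMIs passed in B cells, cDCs or endothelial-like cells, and pairs with fewer were not counted here. In B cells 0.293% of 2734 genes were higher and 0.695% lower. In cDCs 0.861% of 4993 genes were higher and 0.641% lower, and in endothelial-like cells 1.31% of 4820 were higher and 1.24% lower. In granulocytes 0 of the 5 genes measured passed 2-fold, while 4.79% of 4278 genes were at least 2-fold higher and 6.03% at least 2-fold lower. The median log2 ratio of the 5 was -0.66 against 0.12 over all genes. In macrophages the median of the 4 genes measured was 0.66 against -0.02 over all genes.

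Cxcl2, the neutrophil attractant also called MIP-2, was the most heavily read ligand in granulocytes themselves. Granulocytes had 34467 Cxcl2 UMIs in Ctrl, or 17298 CPM (17116 to 17482), and 80049 in KD, or 10090 CPM (10021 to 10160). The level was thus 1.71-fold lower in KD, with a log2 ratio of -0.78 (-0.80 to -0.76). Cells were then thinned to 1000 UMIs each, and 46 granulocytes of Ctrl and 112 of KD that held fewer were dropped. The median cell held 15 Cxcl2 UMIs in Ctrl and 9 in KD. At least 1 Cxcl2 UMI was found in 96.7% of thinned granulocytes in Ctrl (95.2% to 97.9%) and 90.3% in KD (89.0% to 91.5%). T cells, which should lack the gene, had one in 4.15% and 7.80%, at median depths before thinning of 6604 and 5603 UMIs against 2169 and 2856 in granulocytes. Since granulocytes were more numerous in KD, they held 60.6% of that library's Cxcl2 UMIs against 41.2% in Ctrl.

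Macrophages held 49.7% of the Cxcl2 UMIs of Ctrl and 32.0% of those of KD. Their level was 1582 CPM in Ctrl (1567 to 1597) and 1765 CPM in KD (1748 to 1782), a log2 ratio of 0.16 (0.14 to 0.18). This small difference turned round when the mix of macrophages was held equal, as given below. In order of level among the 9 classes in Ctrl, granulocytes were followed by macrophages, tumor-like or fibroblast-like cells at 632 CPM and endothelial-like cells at 276 CPM. After them came cDCs at 171 CPM and NK cells at 166 CPM, which did not differ beyond counting error, then B cells at 73.7 CPM and T cells at 60.8 CPM, which did not either, and pDCs at 36.7 CPM. In KD the endothelial-like cells at 317 CPM lay above the tumor-like or fibroblast-like cells at 258 CPM and the cDCs at 278 CPM, and the latter pair did not differ beyond counting error. Below them in KD came pDCs at 204 CPM, T cells at 156 CPM, B cells at 120 CPM and NK cells at 82.8 CPM.

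Cxcl1, also called KC, had the same level over all cells in both libraries, with 54.0 CPM in Ctrl and 54.1 CPM in KD, but was read in different cells. In Ctrl, 161 tumor-like or fibroblast-like cells held 1807 of the 3473 Cxcl1 UMIs (52.0%), at 890 CPM (850 to 932). In KD, 96 such cells held 516 UMIs (15.4%), at 395 CPM (362 to 430). The log2 ratio in these cells was -1.17 (-1.32 to -1.03). Tumor-like or fibroblast-like cells reached the libraries only by passing the CD45+ selection. Neither these shares nor the level over all cells therefore measures the Cxcl1 of the lesions. Macrophages held 36.7% of the Cxcl1 UMIs of Ctrl, at 48.4 CPM (45.8 to 51.1), and 72.0% of those of KD, at 101 CPM (96.6 to 105), a log2 ratio of 1.06 (0.96 to 1.15). This ratio was 0.026 (-0.10 to 0.15) without the sub-clusters led by Ltc4s, which were almost all from KD, and 0.19 with the same mix of sub-clusters. Endothelial-like cells had 89.7 CPM of Cxcl1 in Ctrl (73.2 to 109) and 17.4 CPM in KD (13.7 to 21.8), a log2 ratio of -2.37 (-2.82 to -1.93). Granulocytes had few Cxcl1 UMIs, 100 in Ctrl and 224 in KD. Their level was 50.2 CPM in Ctrl (40.8 to 61.0), within counting error of macrophages, and 28.2 CPM in KD (24.7 to 32.2). The log2 ratio was -0.83 (-1.18 to -0.47), and -0.52 with the same mix of sub-clusters. Of these UMIs, 71% in Ctrl and 73.7% in KD lay in 1% of the granulocytes. In thinned cells a Cxcl1 UMI was found in 34.0% of tumor-like or fibroblast-like cells in Ctrl and 15.4% in KD, against 0.128% and 0.0629% of T cells. In macrophages the shares were only 2.82% and 3.64%, and 1% of the macrophages held 56.6% of the Cxcl1 UMIs of that class in Ctrl and 55.6% in KD. Of the 112 thinned Ctrl macrophages with a Cxcl1 UMI, 93 also had one of Cxcl2, and so did 94 of the 108 in KD.

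The lower Cxcl1 level of the non-immune cells was seen in each of their larger sub-clusters. In the collagen-rich sub-cluster, which is fibroblast-like or stellate-like by Col1a1, Col3a1 and Dcn, it was 682 CPM in Ctrl and 124 CPM in KD (39 and 36 cells). Markers differed there too, with Col1a1 at 3939 CPM in Ctrl and 706 CPM in KD and Dcn at 583 CPM and 843 CPM. The 2 libraries may thus hold unlike cells in this sub-cluster. In the keratin-positive sub-cluster led by Crct1 and Igfbp6, Cxcl1 was at 1011 CPM and 691 CPM (44 and 22 cells). In that led by cell cycle genes it was at 933 CPM and 423 CPM (49 and 21 cells). Cxcl2 was lower too in both keratin-positive sub-clusters, at 619 CPM in Ctrl against 194 CPM in KD and at 890 CPM against 310 CPM. In the collagen-rich cells it was 170 CPM and 151 CPM, a log2 ratio of -0.17 (-0.72 to 0.38) that left no difference detectable at this depth. TMM scaling, which corrects for the overall shift of a class, moved ratios by 0.11 in the tumor-like or fibroblast-like cells.

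Cxcl3, the third of these CXCR2 ligands, was about equal between libraries over all granulocytes and higher in the macrophages of KD. Granulocytes had 252 CPM in Ctrl (231 to 276) and 247 CPM in KD (236 to 258), a log2 ratio of -0.03 (-0.17 to 0.11). With the same mix of granulocyte sub-clusters the ratio was 0.30. Macrophages had 17.7 CPM in Ctrl (16.1 to 19.4) and 74.9 CPM in KD (71.5 to 78.5), or 4.24-fold more, a log2 ratio of 2.08 (1.94 to 2.23), which was 0.84 without the sub-clusters led by Ltc4s and 0.35 with the same mix. The neutrophil gene S100a9 also differed in macrophages, at 76.9 CPM in Ctrl and 540 CPM in KD, and the part of granulocyte RNA in the result was not tested. In KD, Cxcl3 UMIs per 1000 S100a9 UMIs were 139 in macrophages and 4.17 in granulocytes. Over all cells, 1018 Cxcl3 UMIs were read in Ctrl and 4012 in KD. Granulocytes held 49.4% and 48.9% of them, and macrophages 45.7% and 44.7%. In thinned cells, 8.97% of Ctrl and 11.5% of KD granulocytes had a Cxcl3 UMI, against 1.23% and 3.61% of macrophages and 0.128% and 0.189% of T cells. In the last 500 bases of its annotated transcripts, 61 of 799 windows of 50 bases of Cxcl2 also occur in Cxcl3, so a few Cxcl2 reads may have been left uncounted, and none of the windows counted for Cxcl1 or Cxcl3 occurred in another gene.

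**Figure D2:**
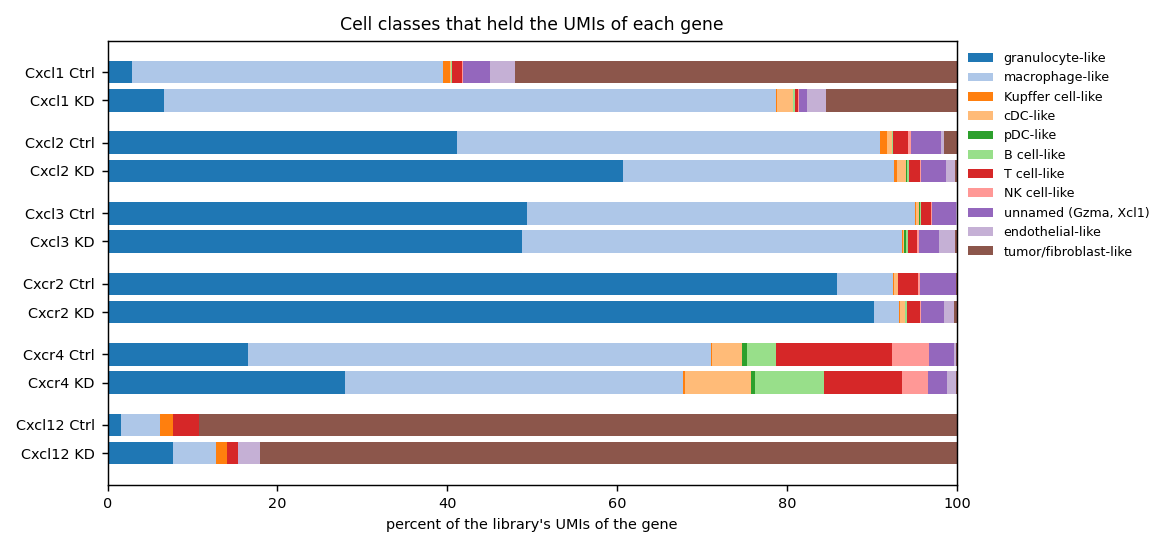
Percent of each library's UMIs of a gene (horizontal axis) held by each cell class, 1 bar per gene and library. The Cxcl1 bars changed from 52.0% in tumor-like or fibroblast-like cells in Ctrl to 72.0% in macrophages in KD, while granulocytes held 85.9% and 90.2% of the Cxcr2 UMIs. The shares depend on how many cells of each class entered a library.

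The macrophages were divided into sub-clusters, again without the 6 genes, to see where the ligands were read. One sub-cluster, led by Ltc4s, Fabp7, Pf4 and Il6, held 16 Ctrl macrophages (0.389%) and 511 KD macrophages (16.7%). By its markers Apoe, Folr2 and Mrc1 it also took the list name C1q-high, but no C1q gene was among the markers found in it. In KD it had 343 CPM of Cxcl1 (326 to 360), 263 CPM of Cxcl3 (248 to 279) and 4205 CPM of Cxcl2 (4145 to 4266). It therefore held 45.9% of all Cxcl1 UMIs of the KD library, 29.3% of its Cxcl3 UMIs and 14.2% of its Cxcl2 UMIs. Cxcl3 and Cxcl1 were themselves among its 10 leading genes. Its 16 Ctrl cells had 877 CPM of Cxcl1 and 6825 CPM of Cxcl2.

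The inflammatory-like sub-cluster, led by Inhba, Il1a, Il1b and Tnf, was the other main source among macrophages. It had 5437 CPM of Cxcl2 in Ctrl and 4807 CPM in KD, and 189 CPM and 246 CPM of Cxcl1, and it made up 12.1% of Ctrl and 5.33% of KD macrophages. Sub-clusters with C1q genes, interferon-related genes (Upp1, Isg15) or cell cycle genes had between 538 and 1096 CPM of Cxcl2. Cxcl3 had another site in the sub-cluster led by Chil3 and Vcan, genes of classical monocytes, with 100 CPM in Ctrl and 95.7 CPM in KD, although neutrophil genes such as S100a8, Lcn2 and Mmp8 were also among its leading genes.

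Left without the 2 sub-clusters led by Ltc4s and Pf4, the macrophages had log2 ratios of 0.026 for Cxcl1 (-0.10 to 0.15), 0.84 for Cxcl3 (0.66 to 1.02) and -0.36 for Cxcl2 (-0.38 to -0.34). With the same mix of the 7 sub-clusters that held at least 20 cells in each library, the ratios were 0.19 for Cxcl1, 0.35 for Cxcl3 and -0.27 for Cxcl2, and with 12 finer sub-clusters they were 0.090, 0.30 and -0.11. Cxcl2 was thus lower in KD under each of these views and slightly higher over the class as a whole. Within sub-clusters, Cxcl2 was lower in KD in the C1q-high-like (-0.46), Upp1-led (-0.90), inflammatory-like (-0.18) and cycling-like (-0.47) cells and in those that also carried T cell genes (-0.31). It was higher in the Chil3-led cells (0.22) and in the low-UMI sub-cluster led by AY036118 (0.53).

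**Figure D3:**
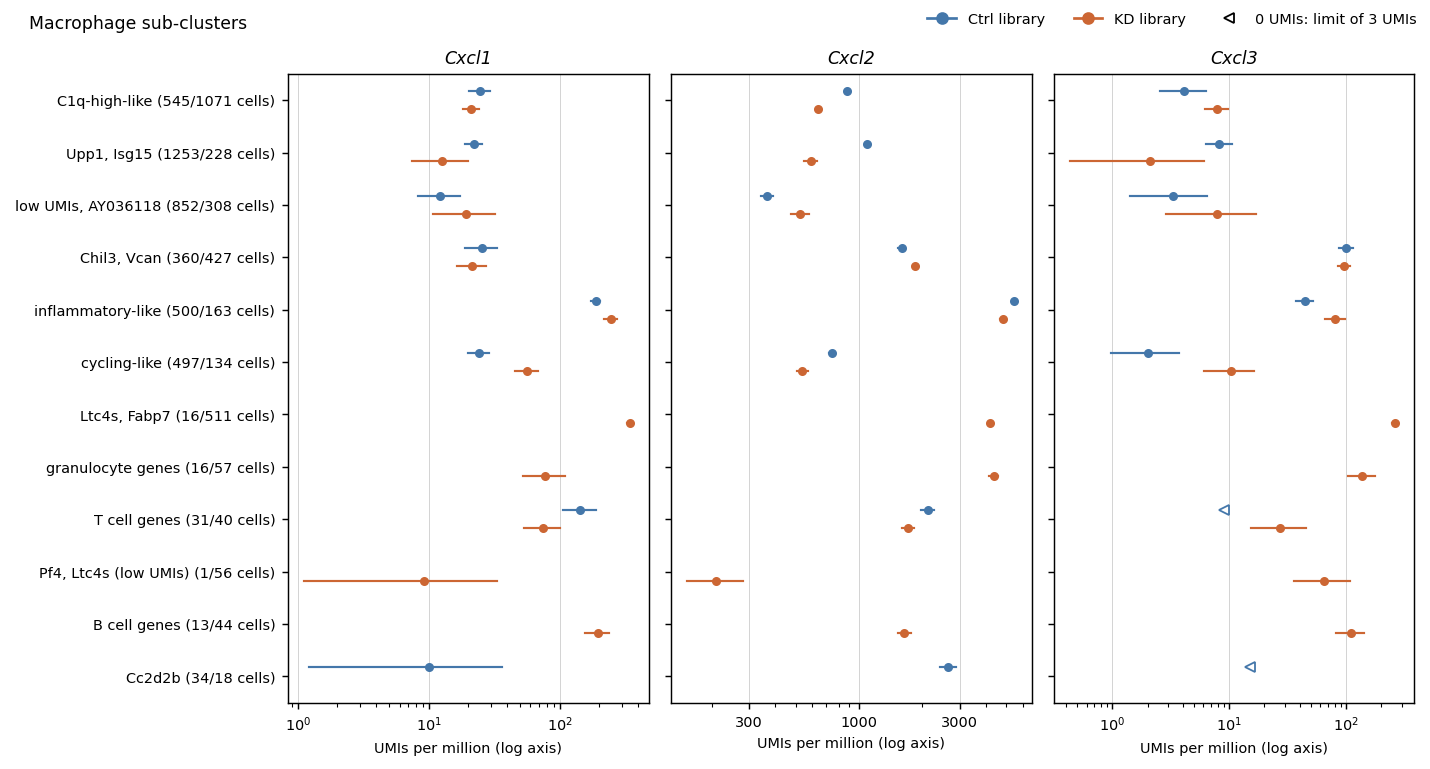
Cxcl1, Cxcl2 and Cxcl3 in CPM (log axis) in each macrophage sub-cluster with at least 20 cells in a library, with 95% Poisson intervals and the cell numbers of Ctrl and KD in brackets. The sub-cluster led by Ltc4s and Fabp7 has a KD point only, at 343 for Cxcl1 and 263 for Cxcl3.

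Cxcl12, the ligand of CXCR4, was rare in these CD45+ selected cells, with 65 UMIs in Ctrl and 78 in KD. The tumor-like or fibroblast-like cells held 58 (89.2%) and 64 (82.1%) of them, and every one of these lay in the collagen-rich sub-cluster. There, 8 of 39 Ctrl cells and 4 of 36 KD cells had Cxcl12, and single cells held as many as 23 UMIs in Ctrl and 42 in KD. The level in that sub-cluster was 159 CPM and 176 CPM, a log2 ratio of 0.15 (-0.39 to 0.68), so no difference was detectable at this depth. Over all tumor-like or fibroblast-like cells the ratio was 0.78 (0.24 to 1.32). It was 4.11 (2.77 to 5.80) with likely doublets left out, which left 5 Cxcl12 UMIs in Ctrl and 42 in KD, and 0.62 (-0.30 to 1.54) without the 2 Ctrl cells and 1 KD cell with the most, so the value rested on a few cells. Endothelial-like cells had 0 Cxcl12 UMIs in Ctrl, which allows up to 2.61 CPM, and 2 UMIs in KD, or 0.463 CPM. All cells outside the collagen-rich sub-cluster together had 7 Cxcl12 UMIs in Ctrl and 14 in KD. Cells without CD45 reached these libraries only by passing the selection, so these numbers do not measure the CXCL12 of the lesions.

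Cxcr2, the receptor for Cxcl1, Cxcl2 and Cxcl3, was nearly confined to granulocytes, which held 689 of 802 Cxcr2 UMIs in Ctrl (85.9%) and 3818 of 4231 in KD (90.2%). The level in granulocytes was 346 CPM in Ctrl (320 to 373) and 481 CPM in KD (466 to 497), 1.39-fold higher, with a log2 ratio of 0.48 (0.36 to 0.60). After thinning, 29.2% of Ctrl granulocytes (25.9% to 32.5%) and 38.1% of KD granulocytes (36.1% to 40.2%) had a Cxcr2 UMI, against 0.0319% and 0.189% of T cells. In the last 500 bases of its transcripts, 20 of 902 windows of 50 bases also occur in other genes. Every other named class had under 12 CPM in both libraries, and in the B cells, pDCs and endothelial-like cells of Ctrl no Cxcr2 UMI was read, which in B cells allows up to 3.75 CPM and in endothelial-like cells up to 2.61 CPM.

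Cxcr4 was read in every class, at its highest in granulocytes, and went the other way from Cxcr2 there. Granulocytes had 687 CPM in Ctrl (651 to 724) and 435 CPM in KD (421 to 450), 1.58-fold lower, with a log2 ratio of -0.66 (-0.75 to -0.57). A Cxcr4 UMI was found in 43.3% of thinned Ctrl granulocytes (39.7% to 46.9%) and 34.5% of those of KD (32.5% to 36.6%). No class surely lacks Cxcr4, and the lowest shares were 0% and 1.10%, in tumor-like or fibroblast-like cells. B cells, which use CXCR4 to home to marrow, came next at 347 CPM in Ctrl and 406 CPM in KD. In KD, granulocytes and B cells lay within counting error of each other. In Ctrl, NK cells followed at 226 CPM, then macrophages at 171 CPM, and cDCs at 107 CPM and pDCs at 104 CPM, which did not differ beyond counting error. In KD, macrophages followed at 206 CPM (200 to 212), and then cDCs at 189 CPM (177 to 201). After them came NK cells at 127 CPM and pDCs at 124 CPM, which did not differ beyond counting error. The NK cell cluster was also led by Lef1 and Tcf7, genes of naive or memory T cells, and may be a mixture.

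Seen per cell, 16.9% of thinned Ctrl granulocytes had Cxcr2 without Cxcr4, 31.0% had Cxcr4 without Cxcr2, 12.3% had both and 39.8% had neither. In KD the shares were 25.9%, 22.3%, 12.2% and 39.6%. Granulocytes with 1 receptor alone were thus more often Cxcr4 cells in Ctrl and slightly more often Cxcr2 cells in KD, and the shares with both or with neither lay within counting error of each other. Cxcl2 and its receptor were read in the same cell in 28.5% of thinned Ctrl granulocytes and 34.8% of those of KD.

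Granulocytes fell into sub-clusters that differed in both receptors and in number between the libraries. The interferon-like sub-cluster, with Ifit1, Ifit3, Isg15 and Rsad2, made up 55.8% of Ctrl and 6.46% of KD granulocytes. It had the most Cxcl2, at 23097 CPM in Ctrl and 19684 CPM in KD, and much Cxcr4, at 892 CPM and 889 CPM. A sub-cluster led by Arf2 and Saa3 made up 11.9% of Ctrl and 36.6% of KD granulocytes, with 989 CPM and 830 CPM of Cxcr4, within counting error of the interferon-like cells. A mature-like sub-cluster with Retnlg, Mmp8 and Stfa genes held 8 Ctrl cells and 432 KD cells (0.995% and 18.7%). In KD it had 185 CPM of Cxcr4 (166 to 206), 580 CPM of Cxcr2 (546 to 616) and 8923 CPM of Cxcl2. Of its thinned KD cells, 35.6% had Cxcr2 without Cxcr4 and 11.3% Cxcr4 without Cxcr2.

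In the immature-like sub-cluster, with Camp, Ltf and Ngp, the genes of secondary granules, all 3 were low. It had 99.4 CPM of Cxcr4 in Ctrl and 83.8 CPM in KD, 249 CPM and 277 CPM of Cxcr2, and 5252 CPM and 2676 CPM of Cxcl2. A sub-cluster led by Lypd6b and Rdh12 had the highest Cxcr2 of KD, at 694 CPM against 481 CPM in Ctrl, and the highest Cxcl3 of granulocytes, at 599 CPM in Ctrl and 563 CPM in KD. Cxcl3 also differed within the interferon-like cells, at 167 CPM in Ctrl and 460 CPM in KD. It went the other way in the immature-like cells, at 144 CPM and 28.3 CPM, so that the near-equal class level covered differences of both signs.

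**Figure D4:**
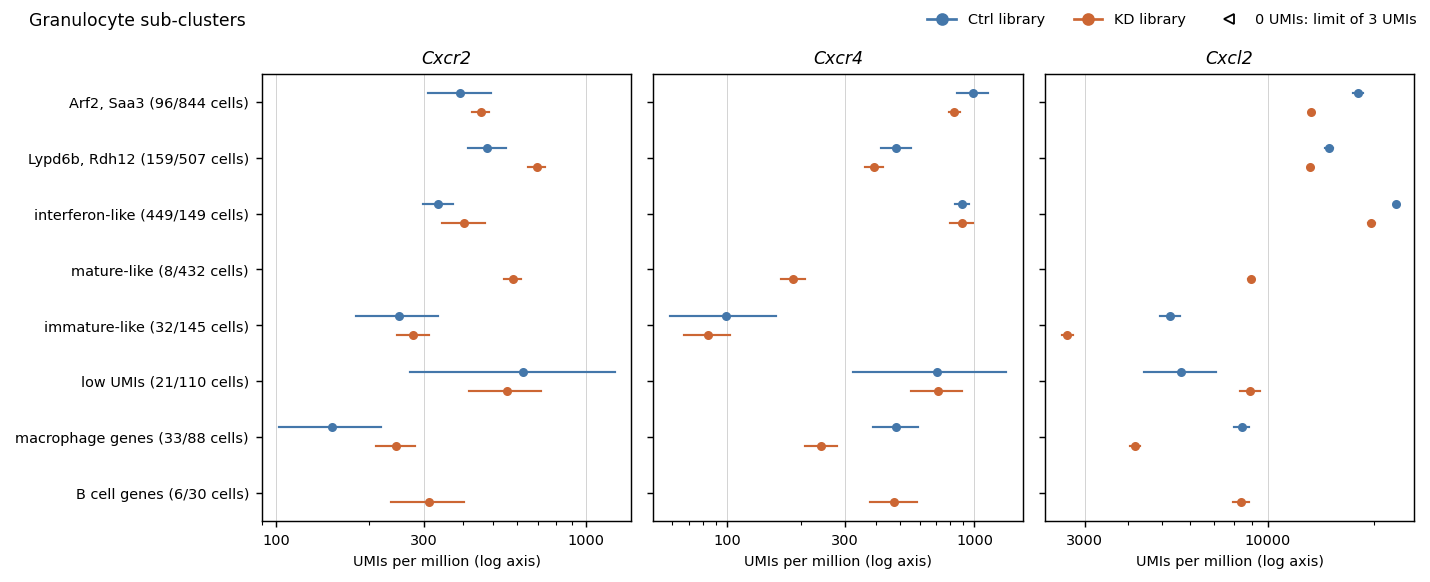
Cxcr2, Cxcr4 and Cxcl2 in CPM (log axis) in each granulocyte sub-cluster with at least 20 cells in a library, with 95% Poisson intervals and the cell numbers of Ctrl and KD in brackets. In KD, Cxcr4 spans from 83.8 in immature-like to 889 in interferon-like cells, and the mature-like cells have a KD point only, at 185.

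Within sub-clusters the difference in Cxcr4 was small. In the Arf2-led cells the log2 ratio was -0.25 (-0.47 to -0.03), in the Lypd6b-led cells -0.30 (-0.53 to -0.06), in the interferon-like cells -0.01 (-0.19 to 0.18) and in the immature-like cells -0.25 (-0.99 to 0.57). The sub-cluster that also carried macrophage genes was an exception, at -1.01 (-1.38 to -0.63). With the same mix of the 6 sub-clusters that held at least 20 cells in each library, the ratio over granulocytes was -0.20 for Cxcr4, -0.33 for Cxcl2 and 0.35 for Cxcr2, against -0.66, -0.78 and 0.48 in the mix each library held. With 8 finer sub-clusters the ratio of Cxcr4 turned to 0.15, while Cxcl2 was at -0.31 and Cxcr2 at 0.31. Cxcl2 was lower in KD within the interferon-like (-0.23), Arf2-led (-0.45), Lypd6b-led (-0.18) and immature-like cells (-0.97) and those with macrophage genes (-1.01), and higher in the low-UMI cells (0.65). Cxcr2 was higher in KD within the Lypd6b-led cells (0.53, 0.31 to 0.75) and those with macrophage genes (0.68, 0.11 to 1.30), and the intervals of the other 4 sub-clusters included 0.

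**Figure D5:**
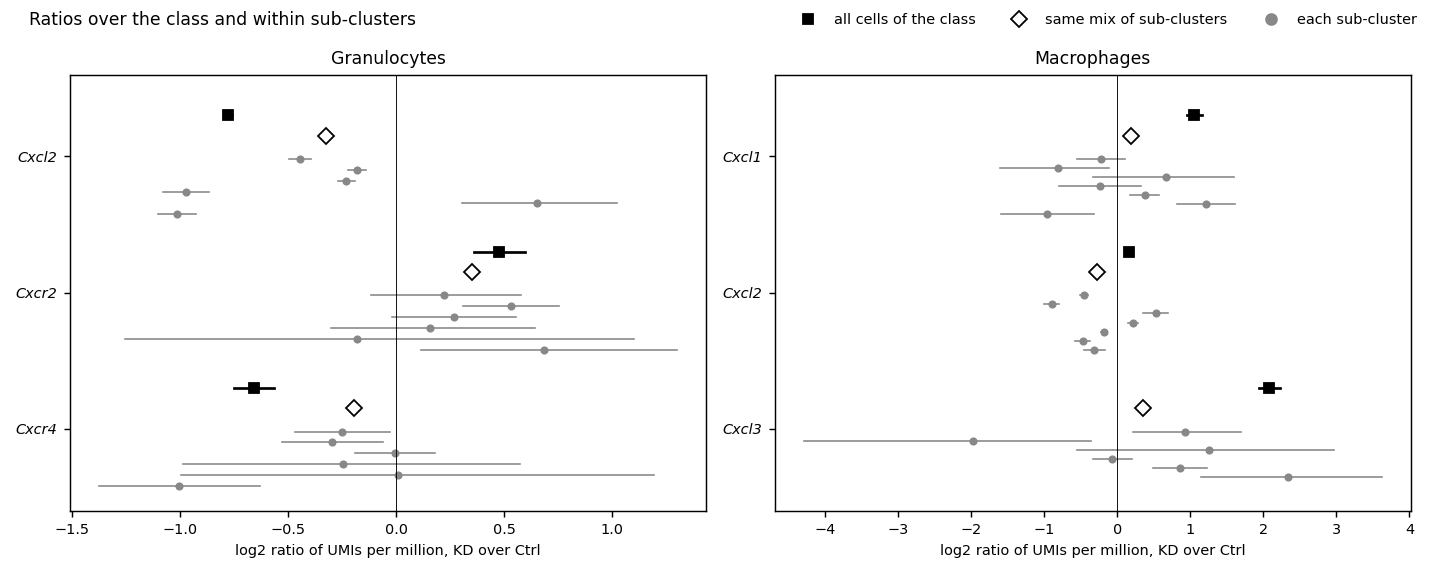
Log2 ratio of CPM, KD over Ctrl, over all cells of the class (squares), with the same mix of sub-clusters in both libraries (open diamonds) and in each sub-cluster with at least 20 cells in each library (grey points), with 95% intervals for counting error. Cxcr4 in granulocytes moves from -0.66 over the class to -0.20 with the same mix, and Cxcl2 in macrophages from 0.16 to -0.27. A sub-cluster with 0 UMIs in a library has no point.

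In the lymphocytes, where the ligands are low, some ratios were large. T cells had 60.8 CPM of Cxcl2 in Ctrl (57.8 to 64.0) and 156 CPM in KD (148 to 163), a log2 ratio of 1.36 (1.26 to 1.46). Beside this, S100a9, a gene of neutrophils that T cells should lack, was at 26.3 CPM in the T cells of Ctrl and 452 CPM in those of KD, and 43.4% of KD T cells had an S100a9 UMI against 10.5% in Ctrl. The part of such free granulocyte RNA in the Cxcl2 of T cells was not tested. Cxcl2 UMIs per 1000 S100a9 UMIs were 2316 and 345 in T cells and 504 and 170 in granulocytes. In T cells 1% of the cells held 56.3% of the Cxcl2 UMIs in Ctrl and 54.2% in KD.

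Cxcr4 in T cells was 44.9 CPM in Ctrl (42.4 to 47.6) and 101 CPM in KD (94.9 to 107), a log2 ratio of 1.16 (1.04 to 1.28). It was found in 5.11% of thinned T cells of Ctrl and 9.94% of those of KD. The ratio was 1.03 in the T cell cluster led by Ccl5 and Cd8b1, 1.28 in the cycling one and 0.23 (-0.01 to 0.47) in the one led by Cd4. Those clusters held T cells of Ctrl and KD in other proportions, with 608 and 605 cells in the Cd4-led one out of 3222 and 1616. In NK cells Cxcr4 was lower in KD, with a log2 ratio of -0.83 (-1.04 to -0.62), and in cDCs it was higher, at 0.81 (0.62 to 1.01).

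NK cells had 166 CPM of Cxcl2 in Ctrl and 82.8 CPM in KD, a log2 ratio of -1.01 (-1.26 to -0.75), but 1% of the cells held 70.9% of the Ctrl UMIs, with 101 in a single cell. Without the 5 and 8 cells with the most Cxcl2, the ratio was 0.57 (0.19 to 0.97), the opposite direction.

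Genes that act beside these 6 were counted from lists of the pathway. Among 14 measured inducers and regulators of the CXCR2 ligand genes, 5 were at least 2-fold lower in KD granulocytes and 0 higher, where 6.03% of all genes were lower and 4.79% higher. They were Il1a (-2.34), the IL-1 receptor antagonist gene Il1rn (-2.08), Ptgs2, which encodes the prostaglandin enzyme COX-2 (-1.55), Tnf (-1.23) and Nfkb1, an NF-kappaB subunit (-1.11). Il1b, which encodes the inflammatory cytokine IL-1 beta, was at 9230 CPM in Ctrl and 4847 CPM in KD (-0.93). The median of the 14 was -0.92, against 0.12 over all genes in granulocytes. In macrophages 0 of 15 of these genes passed 2-fold, with a median of -0.05. All these ratios are over a whole class, and the mix of sub-clusters within each class differed between the libraries. For Cxcl2 in granulocytes, the same mix took the log2 ratio from -0.78 to -0.33. No such view was made for the inducers and regulators, so the part of the mix in their ratios was not tested.

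Of the other neutrophil chemoattractant receptors, 7 were measured in granulocytes and 0 passed 2-fold. Since 4.79% of all genes in granulocytes were at least 2-fold higher and 6.03% lower, such a count for a short list is near the background, and nothing is read from it or from those that follow. Fpr1, a receptor for formyl peptides, was at 257 CPM in Ctrl and 347 CPM in KD, and C5ar1, the complement C5a receptor, at 780 CPM and 773 CPM. Csf3r, the receptor for the growth factor G-CSF, was at 830 CPM and 920 CPM, and 0 of the 4 growth and mobilizing genes measured passed 2-fold. The same held for 15 genes of receptor signalling and adhesion, whose median was 0.21. Selplg, the selectin ligand with which neutrophils roll on vessels, was at 176 CPM and 312 CPM (0.83), and Itga4, an integrin subunit, at 176 CPM and 113 CPM (-0.64).

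Of the other ligands of CXCR2, Cxcl5 and Ppbp were little read in macrophages. Their list of 7 ligands and decoys, of which 2 were measured in macrophages, also held Mif, Cxcl15, Cxcr1 and Ackr1. The values of those genes are not given here. Cxcl5 had 2 UMIs in the macrophages of Ctrl and 3 in those of KD, and Ppbp had 25 and 67. Pf4, a related chemokine of platelets and some macrophages, was at 40.8 CPM in the macrophages of Ctrl and 244 CPM in those of KD (2.58), the only gene of its list at least 2-fold higher there. It was also among the leading genes of the sub-cluster that held most macrophage Cxcl1 in KD.

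The genes whose levels followed each of the 6 most closely were found by Pearson's r of log2 levels over 20 points, 10 classes in 2 libraries, among 13441 genes. These points share libraries and cells, so r is a description. Cxcl1 was most like Ccl2 (0.92), a monocyte attractant, and Cd63 (0.90). Cxcl2 was most like Gm16556 (0.97), Dusp1 (0.95) and C5ar1 (0.95). Cxcl3 followed Clec4d (0.91), Wfdc21 (0.91) and Mmp8 (0.90), and Cxcr2 followed Asprv1 (0.96), Stfa2l1 (0.95) and S100a9 (0.95), which are mostly neutrophil genes. Cxcl12 followed the fibroblast gene Dcn (0.98), and Cxcr4 followed Nfkbid (0.94) and Sorl1 (0.93).

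Over all filtered cells the levels reflect both the cells present and what they hold. Cxcr2 was at 12.5 CPM in Ctrl and 68.6 CPM in KD, a log2 ratio of 2.46 (2.35 to 2.57), against 0.48 within granulocytes, whose share of cells was 8.19% and 22.6%. Cxcl2 was at 1302 CPM and 2139 CPM, a ratio of 0.72 (0.70 to 0.73), although it was lower in the granulocytes of KD and nearly equal in macrophages. Cxcr4 was at 129 CPM and 200 CPM (0.64, 0.60 to 0.68), although it was lower in granulocytes. Cxcl12 had a ratio of 0.32 (-0.17 to 0.82), with no difference detectable at this depth. More cells of a class in a library and more RNA per cell cannot be told apart in such sums, and whether the cells were more frequent in the lesions was not measured with 1 library per group.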

How the data were processed

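Per the labels and the study's methods, the authors loaded CD45+ cells on the 10x Chromium Single Cell 3' v3.1 kit. The deposited tables hold raw UMI counts for every gene in every barcode. By the submitters' processing notes, the authors used Cell Ranger 7.1.0 and the build GRCm39. The annotation version is not given in the sources used here. The libraries held 67207234 (Ctrl) and 64444715 (KD) UMIs in 10416 and 10943 barcodes, of which 27 were in both. Every barcode held at least 500 UMIs.

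The 6 genes, the gene lists and the marker lists were chosen with earlier results of these data known. Of 21359 barcodes, 19999 passed a filter of 200 to 6000 genes, no more than 30000 UMIs and no more than 10% mitochondrial UMIs. These upper limits were the only treatment of doublets. As an alternative, Scrublet (scanpy 1.11.5) scores were used to leave out 818 Ctrl and 892 KD cells, at 0.8% per 1000 cells. Clusters were made in Seurat 5.3.0 with 2000 variable genes, 20 principal components and resolution 0.5, without integration and without the 6 genes and the pathway lists among the variable genes. A cluster took the name of the list with the largest share of its markers found (at least 3, log2 fold of at least 1, or 0.5 within a class, in at least 10% of cells). That choice was made after the clusters had been seen. Clusters whose leading genes went against the name stayed unnamed.

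UMIs were summed per class and library. Levels have exact Poisson intervals, log2 ratios exact conditional binomial intervals and shares of cells exact Clopper-Pearson intervals, all at 95% and for counting error only, since PCR and cells of a library are not replicates. For 0 UMIs, 3 UMIs were taken as the limit. Genes with at least 200 UMIs over both libraries in a class were compared for a 2-fold difference. Cells were thinned to 1000 UMIs for shares. The ratio method was also run on counts simulated with Poisson error alone. Such counts lack the clumping over cells and any spread between samples, so nothing is concluded from that run. The 6 genes were read in every class and sub-cluster, and the text gives a part of these values. Of each pathway list it names those at least 2-fold apart in granulocytes and macrophages only, so other classes are not covered. Any other gene it names was picked with its values in view. Promoters come from RefSeq (GRCm38.p6), which had all 6 genes, and transcripts from GENCODE on the same build. No coordinates of the count tables' build were used. The alternatives were a stricter cell filter, removal of likely doublets, resolution 1.0, classes of single cells by marker sums, TMM scaling (edgeR 4.0.16), the mean of CPM over cells, no scaling to depth, and leaving out the 1% of cells with the most UMIs. Views without some sub-clusters or with an equal mix of them were added after seeing the data.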

Additional observations from a re-analysis of the deposited data

Results flagged for a closer look

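The ratio of Cxcl1 between KD and Ctrl went in opposite directions in different classes. Its log2 ratio was 1.06 in macrophages and -1.17 in tumor-like or fibroblast-like cells. The macrophage value was 0.026 without the sub-clusters led by Ltc4s and 0.19 with the same mix of sub-clusters. Cxcl2 had log2 ratios of 1.36 in T cells, -1.01 in NK cells and -1.29 in tumor-like or fibroblast-like cells. With 1 library per group, these differences between classes were not tested. The NK cell value rests on 5 Ctrl cells and was 0.57 without the 1% of cells with the most Cxcl2. The same step gave -0.93 in tumor-like or fibroblast-like cells, where 2 Ctrl cells and 1 KD cell were left out.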

How the results depend on the processing

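No paired analysis was possible because each group has 1 library. Of the log2 ratios recomputed under alternatives, 43 stayed within the counting error of the reported value, 30 moved out of it and 4 changed direction. Cxcl2 in macrophages (log2 ratio 0.16) became -0.36 without the sub-clusters led by Ltc4s and -0.27 or, with finer ones, -0.11 with the same mix of sub-clusters. These views gave 0.026, 0.19 and 0.090 for Cxcl1 and 0.84, 0.35 and 0.30 for Cxcl3 in macrophages. The same mix, and that of finer sub-clusters, gave -0.33 and -0.31 for Cxcl2, 0.35 and 0.31 for Cxcr2 and -0.20 and 0.15 for Cxcr4 in granulocytes. Without scaling to depth, ratios were 1.35 (Cxcl1), 0.45 (Cxcl2) and 2.38 (Cxcl3) in macrophages and -0.30 (Cxcl2), 0.95 (Cxcr2) and -0.19 (Cxcr4) in granulocytes. Cxcl2 in macrophages was 0.13 with the stricter filter, 0.18 at resolution 1.0, 0.21 with TMM, 0.29 as mean CPM over cells and 0.20 without the top 1% of cells. Cxcl2 in granulocytes was -0.75 with TMM, -0.70 as mean CPM and -0.80 without the top 1%, and Cxcr4 was -0.45 as mean CPM. Cxcl1 in macrophages was 0.90 with classes by marker sums, and Cxcl3 2.66 without the top 1%. Cxcl12 in tumor-like or fibroblast-like cells was 1.45 as mean CPM and 4.11 without likely doublets, which left few Cxcl12 cells, and endothelial-like cells held 0 Cxcl12 UMIs without the top 1%. Except where said, the cause was not tested. With 1500 UMIs and with no thinning, the shares of cells were 97.9% (Cxcl2, Ctrl granulocytes, at 1500), 93.2% and 96.1% (KD), 38.8% and 49.4% (Cxcr2, Ctrl), 49.6% and 70.6% (KD), 51.8% and 64.1% (Cxcr4, Ctrl), 43.1% and 59.5% (KD), and for Cxcl2 in macrophages 38.8% and 52.0% (Ctrl) and 42.8% and 65.2% (KD). With genes of at least 10 UMIs, 15 of 38 pairs were at least 2-fold higher and 4 lower in KD, where 3.85% to 12.4% of all genes in these 9 classes were higher and 3.38% to 11.6% lower.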

Other observations

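Kupffer cells, the resident macrophages of the liver, were too few to compare (47 in Ctrl and 82 in KD). They had 712 Cxcl2 UMIs in Ctrl, or 1716 CPM (1592 to 1846), and 402 in KD, or 664 CPM (600 to 732). Cxcl1 was at 29 UMIs in Ctrl, of which 20 lay in 1 cell, and 4 in KD.

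An unnamed cluster of 154 Ctrl and 134 KD cells, led by Ifng, Gzma and Xcl1, had 1818 CPM of Cxcl2 in Ctrl and 2877 CPM in KD, more than macrophages in both libraries. Its Cxcr2 was at 21.1 CPM and 88.5 CPM. The same cells held S100a9 at 1498 CPM and 7122 CPM and C1qb at 934 CPM and 807 CPM, genes of granulocytes and macrophages, and their part in the Cxcl2 and Cxcr2 of this cluster was not tested.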
